A study of Homo sapiens with 8 samples.

Results

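The genes examined here make, bind and anchor hyaluronan, and comprise the synthases HAS1, HAS2 and HAS3, the proteoglycans VCAN and ACAN, the receptor CD44, the secreted protein TNFAIP6 and the link protein genes HAPLN1, HAPLN3 and HAPLN4. They were taken by gene symbol, with earlier results of these data known, and all 10 were found among the 60558 genes of the expression files. The cells were 2D human intestinal epithelial cells (2D hIECs) differentiated from H9, a human embryonic stem cell line. RNA-seq was carried out on 8 libraries, 2 for each of 4 groups: normal hIECs and inflamed hIECs, each kept with or without PM10. Inflamed hIECs received the cytokines IFNγ and TNFα for 10 days, with 50 ng/ml of each as the study's working dose, and PM10, a reference material of coarse airborne particles, was added at 100 µg/ml for the last 7 days. All groups came from the single H9 line, and nothing stated whether the libraries of a group came from separate differentiations, so the p-values measure the spread between libraries, which may be technical.

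Hyaluronan is a long unbranched sugar polymer that synthases in the plasma membrane extrude from UDP-glucuronic acid and UDP-N-acetylglucosamine. Outside the cell it is held by proteoglycans of the lectican family, whose grip is stabilized by link proteins, and at the cell surface it is held by CD44. TNFAIP6, also called TSG-6, attaches heavy chains of inter-alpha-inhibitor to hyaluronan and is known as a gene that inflammatory signals switch on. In the gut, hyaluronan made in inflamed tissue, in part by smooth muscle cells, is known to hold leukocytes.

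The promoters of 3 members are shown because these genes moved in different ways under the 2 agents. HAPLN1 was higher and TNFAIP6 lower when PM10 was added to inflamed hIECs, and ACAN fell under each agent. Each line holds the 250 bases before the RefSeq start of the gene in GRCh38, written 5′ to 3′ on the gene's strand, at chr2:151357342-151357591 (plus strand) for TNFAIP6, chr5:83720856-83721105 (minus strand) for HAPLN1 and chr15:88803186-88803435 (plus strand) for ACAN. Capitals mark the one motif match described below.
TNFAIP6: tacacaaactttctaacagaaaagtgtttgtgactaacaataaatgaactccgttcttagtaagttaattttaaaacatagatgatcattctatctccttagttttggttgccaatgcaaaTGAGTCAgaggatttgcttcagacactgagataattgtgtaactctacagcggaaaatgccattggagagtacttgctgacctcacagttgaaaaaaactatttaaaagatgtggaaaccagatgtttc
HAPLN1: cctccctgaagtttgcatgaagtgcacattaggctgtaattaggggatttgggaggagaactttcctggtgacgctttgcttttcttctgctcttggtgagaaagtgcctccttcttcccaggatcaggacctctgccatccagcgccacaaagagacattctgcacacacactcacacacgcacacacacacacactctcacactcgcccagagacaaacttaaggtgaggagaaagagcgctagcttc
ACAN: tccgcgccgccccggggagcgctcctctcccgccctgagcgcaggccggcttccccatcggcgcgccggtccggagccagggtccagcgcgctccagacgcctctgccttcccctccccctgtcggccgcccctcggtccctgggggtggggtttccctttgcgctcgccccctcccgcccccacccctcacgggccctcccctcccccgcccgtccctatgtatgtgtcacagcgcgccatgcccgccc
Promoters were given for 9 of the 10 members, and 3 short motifs are reported, searched on both strands: GGGANNTTC (NF-κB-like), GAAANNGAA (interferon element) and TGANTCA (AP-1-like). Across the 9 promoters these motifs had 1 match, the AP-1-like TGAGTCA that lies 129 to 123 bases before the start of TNFAIP6. Of all 35116 RefSeq promoters of this length, TGANTCA was present in 6.57%, GAAANNGAA in 6.88% and GGGANNTTC in 3.52%. The TNFAIP6 promoter was also the poorest in G and C, at 34.4%, whereas the other 8 ranged from 50.8% to 77.2%, the highest being ACAN. A match is a run of letters and does not show that a factor binds there.

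Expression values were FPKM, a level per length of transcript, so that levels of different genes can be set side by side. The lowest FPKM above 0 lay between 0.164 and 0.228 in the 8 libraries, the read depth is unknown, and a gene listed at 0 may lie below that value. Differences were tested with limma on log2(FPKM + 1) over the 14206 genes that reached 1 FPKM in 2 or more libraries, a gene was called at an adjusted p under 0.05, and a difference of at least 1 on this scale is termed 2-fold. This scale understates the change of low genes. The IFNγ target CXCL10 rose from 1.15 to 1.73 FPKM in the 4 libraries without cytokines to between 1254 and 1314 FPKM in the 4 with them, so the cytokine labels matched the libraries. Of 10 epithelial markers, CLDN3, CLDN7 and ESRP1 were listed at 0 in every library, CDH1 was above 0 in 1 library (0.221 FPKM) and EPCAM did not exceed 0.622 FPKM, while KRT8 (185 to 383 FPKM) and KRT18 (100.1 to 266 FPKM) were high. Of 11 intestinal markers, 7 were at 0 throughout, among them CDX2, VIL1 and MUC2, whereas SOX9 (13.5 to 15 FPKM without and 3.66 to 3.95 FPKM with cytokines), LGR5 (2.01 to 8.28 FPKM) and KLF5 (1.29 to 2.50 FPKM), genes of intestinal stem and progenitor cells among others, were expressed in every library. All 10 mesenchymal markers were expressed, with COL3A1 at 466 to 1035 FPKM, and the smooth muscle gene TAGLN lay at 698 to 1389 FPKM. Most of the defining markers of epithelium and of mature intestinal cells were thus at or near 0 in these bulk libraries, in which fewer cells of a type and less RNA per cell cannot be told apart.

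Of the 10 members, 9 were above 0 in at least 1 library and 8 met the minimum for the test. HAS1 was listed at 0 in all 8 libraries. HAS3 was at 0 in 7 libraries and at 0.207 FPKM in the normal hIECs with PM10, replicate 2. VCAN, CD44, TNFAIP6, HAPLN1 and HAPLN3 had at least 1 FPKM in every library. ACAN met the minimum only through the 2 normal libraries, HAS2 only through the 4 libraries with cytokines, and HAPLN4 through all but the 2 normal libraries, so for these 3 genes a difference between groups was built into the filter and their calls are not counted as support.

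**Figure D1:**
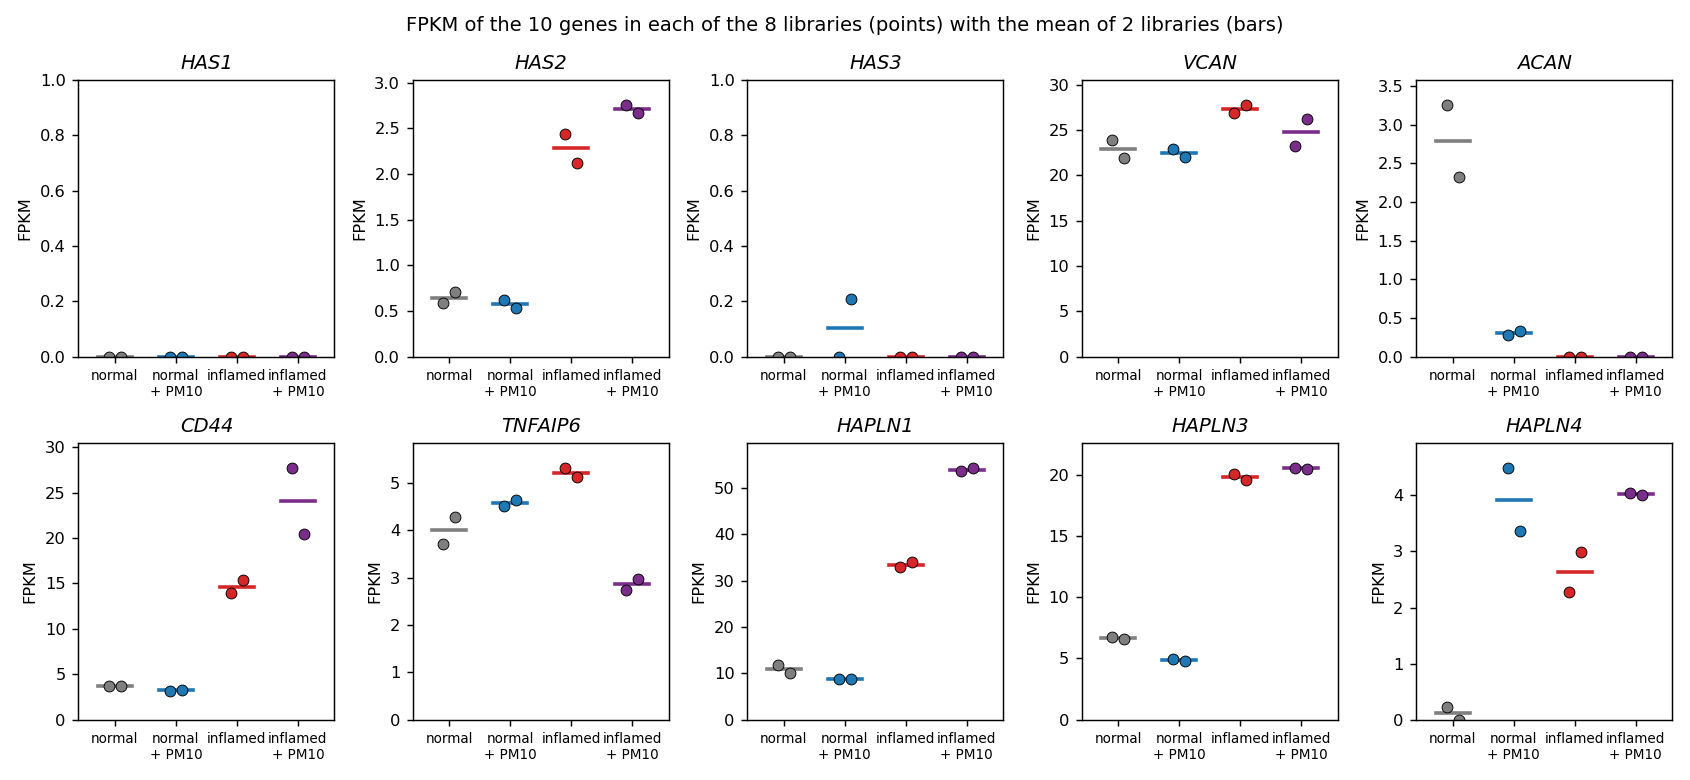
FPKM (vertical axes, linear, from 0) of the 10 genes in each library by group, with points for the 2 libraries and a bar for their mean. HAS2, CD44, HAPLN1 and HAPLN3 sit higher in all 4 libraries with cytokines than in the 4 without, ACAN is at 0 in all 4 libraries with cytokines, and TNFAIP6 is lowest in inflamed hIECs with PM10.

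Among the synthases, HAS2 was the isoform detected. Its level was 0.585 and 0.707 FPKM in normal hIECs, 0.619 and 0.528 FPKM in normal hIECs with PM10, 2.44 and 2.12 FPKM in inflamed hIECs, and 2.75 and 2.67 FPKM in inflamed hIECs with PM10. The libraries with and without cytokines did not overlap. The mean FPKM was 3.53 times higher in inflamed than in normal hIECs, and 4.73 times higher when both carried PM10. On the log2(FPKM + 1) scale the differences were 0.99 (SE 0.092; limma adjusted p = 8.91e-05) and 1.24 (SE 0.092; limma adjusted p = 2.09e-05). With PM10 the difference in HAS2 was not called, at -0.06 in normal hIECs (limma adjusted p = 0.679) and 0.18 in inflamed hIECs (limma adjusted p = 0.224), where both libraries with PM10 lay above both without.

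HAS2 made up 100% of the summed FPKM of the 3 synthases in 7 libraries and 71.9% in the library where HAS3 was above 0. HAS2 lies on chromosome 8 and shares 251 exon bases, 5.92% of its total, with the antisense gene HAS2-AS1. The libraries were not strand-specific, so reads from such pairs cannot be told apart, but HAS2-AS1 stood at 0 to 0.226 FPKM. HAS3 shares 7.02% of its exon bases with CHTF8 and DERPC, both well expressed on the opposite strand, which touches its single value above 0.

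The hyaluronan receptor CD44 and the link protein genes HAPLN1 and HAPLN3 each rose past 2-fold under cytokines, with and without PM10. CD44 was at 3.67 and 3.71 FPKM in normal hIECs and 3.20 and 3.31 FPKM in normal hIECs with PM10. It reached 14 and 15.3 FPKM in inflamed hIECs, and 27.7 and 20.4 FPKM in inflamed hIECs with PM10. The 4 groups were ordered without overlap, with PM10 libraries lowest in normal cells and highest in inflamed cells, and the last group had the widest spread (24.1 ± 5.18 FPKM, SD, n = 2). Cytokines raised CD44 by 1.74 without PM10 (SE 0.13; limma adjusted p = 2.69e-05) and by 2.54 with it (SE 0.13; limma adjusted p = 2.98e-06), which are 3.97 and 7.40 times higher as ratios of mean FPKM.

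HAPLN1, which encodes the link protein first described in cartilage, was the most abundant link protein gene in every library. Its values were 11.7 and 10.2 FPKM in normal hIECs, 8.78 and 8.67 FPKM in normal hIECs with PM10, 32.8 and 34.0 FPKM in inflamed hIECs, and 53.6 and 54.3 FPKM in inflamed hIECs with PM10. No 2 groups overlapped. Cytokines raised HAPLN1 by 1.53 without PM10 (SE 0.068; limma adjusted p = 2.15e-06) and by 2.50 with PM10 (SE 0.068; limma adjusted p = 1.52e-07), or 3.06 and 6.18 times in mean FPKM.

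HAPLN3, a link protein gene with broader known expression, moved from 6.71 and 6.58 FPKM in normal hIECs to 20.1 and 19.5 FPKM in inflamed hIECs. With PM10 it moved from 4.96 and 4.76 FPKM to 20.5 and 20.5 FPKM. All libraries with cytokines lay above all libraries without. The log2 differences were 1.44 (SE 0.053; limma adjusted p = 8.09e-07) and 1.88 (SE 0.053; limma adjusted p = 1.77e-07).

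The proteoglycans behaved differently. VCAN encodes versican, a large chondroitin sulfate proteoglycan that binds hyaluronan, and its level stayed between 21.9 and 27.7 FPKM. It was at 23.9 and 21.9 FPKM in normal hIECs, 22.9 and 22.1 FPKM in normal hIECs with PM10, 26.9 and 27.7 FPKM in inflamed hIECs, and 23.3 and 26.2 FPKM in inflamed hIECs with PM10. The last group overlapped normal hIECs and lay above normal hIECs with PM10. The cytokine difference was 0.25 without PM10 (SE 0.072; limma adjusted p = 0.0206) and 0.13 with PM10 (SE 0.072; limma adjusted p = 0.143). The first of these calls was lost without normal replicate 2 (limma adjusted p = 0.0922), inflamed replicate 1 (0.0605) or inflamed replicate 2 (0.0967), and the second passed after median centring (0.18, limma adjusted p = 0.0362).

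ACAN encodes aggrecan, the chief proteoglycan of cartilage. It was at 3.25 and 2.32 FPKM in normal hIECs and 0.281 and 0.337 FPKM in normal hIECs with PM10, and it was listed at 0 in all 4 libraries with cytokines, so no fold is given against those. Between normal hIECs with and without PM10 the mean was 9.0 times higher without the particles, with the lower values close to the lowest FPKM a library can hold. Under cytokines ACAN fell by 1.91 without PM10 (SE 0.13; limma adjusted p = 2.0e-05) and by 0.39 with PM10 (SE 0.13; limma adjusted p = 0.0326), where the starting level was near that floor. The second call was lost when any 1 of the 4 libraries compared was left out (limma adjusted p = 0.0735 to 0.114). Cartilage collagens moved with ACAN: COL2A1 fell from 4.83 and 3.71 FPKM in normal hIECs to 2.24 and 2.34 FPKM with PM10, 0.770 and 0.924 FPKM with cytokines, and 0.488 and 0.531 FPKM with both, and COL9A1 from 1.43 and 1.58 FPKM to 0 in every library with cytokines. Within the cartilage list of 7 genes, however, MATN3 and COMP were higher with cytokines, and none of the 7 reached 1 FPKM both in normal and in inflamed hIECs, so their calls were built into the filter. The summed level of the list was 4.87 to 8.99 FPKM without and 4.62 to 5.74 FPKM with cytokines. Their part in the ACAN result was not tested.

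TNFAIP6 had a narrow range and changed direction with PM10. It was at 3.71 and 4.28 FPKM in normal hIECs, 4.51 and 4.63 FPKM in normal hIECs with PM10, 5.32 and 5.12 FPKM in inflamed hIECs, and 2.74 and 2.98 FPKM in inflamed hIECs with PM10. Inflamed hIECs were highest and inflamed hIECs with PM10 lowest, with no overlap between any groups. Cytokines raised it by 0.32 without PM10 (SE 0.079; limma adjusted p = 0.011), a call lost without inflamed replicate 1 (limma adjusted p = 0.0624). With PM10 present it fell by 0.53 under cytokines (SE 0.079; limma adjusted p = 0.000741).

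In all, 7 of the 8 members tested were called higher and 1 lower under cytokines without PM10, and 5 passed 2-fold, counts that include HAS2, ACAN and HAPLN4. Leaving out genes that did not reach 1 FPKM in each of the groups compared, 5 of 5 members were higher and 3 passed 2-fold. Of all 14206 genes, 56.2% were called in this comparison, 25.9% higher and 30.3% lower, and 9.18% were called and passed 2-fold. With PM10 on both sides, which shares no library with the former comparison, 4 members were called higher and 2 lower, and 4 passed 2-fold, against 65.4% of all genes called, 25.8% higher, 39.6% lower and 12.9% called and past 2-fold. Without HAS2 and ACAN these counts were 3 higher and 1 lower of 6, with 3 past 2-fold. Nothing is read from these counts about the set. Since most of the genes tested were called, a call alone says little about a member, and the sizes carry the description. The median over all genes was -0.03 without PM10 and -0.11 with it.

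**Figure D2:**
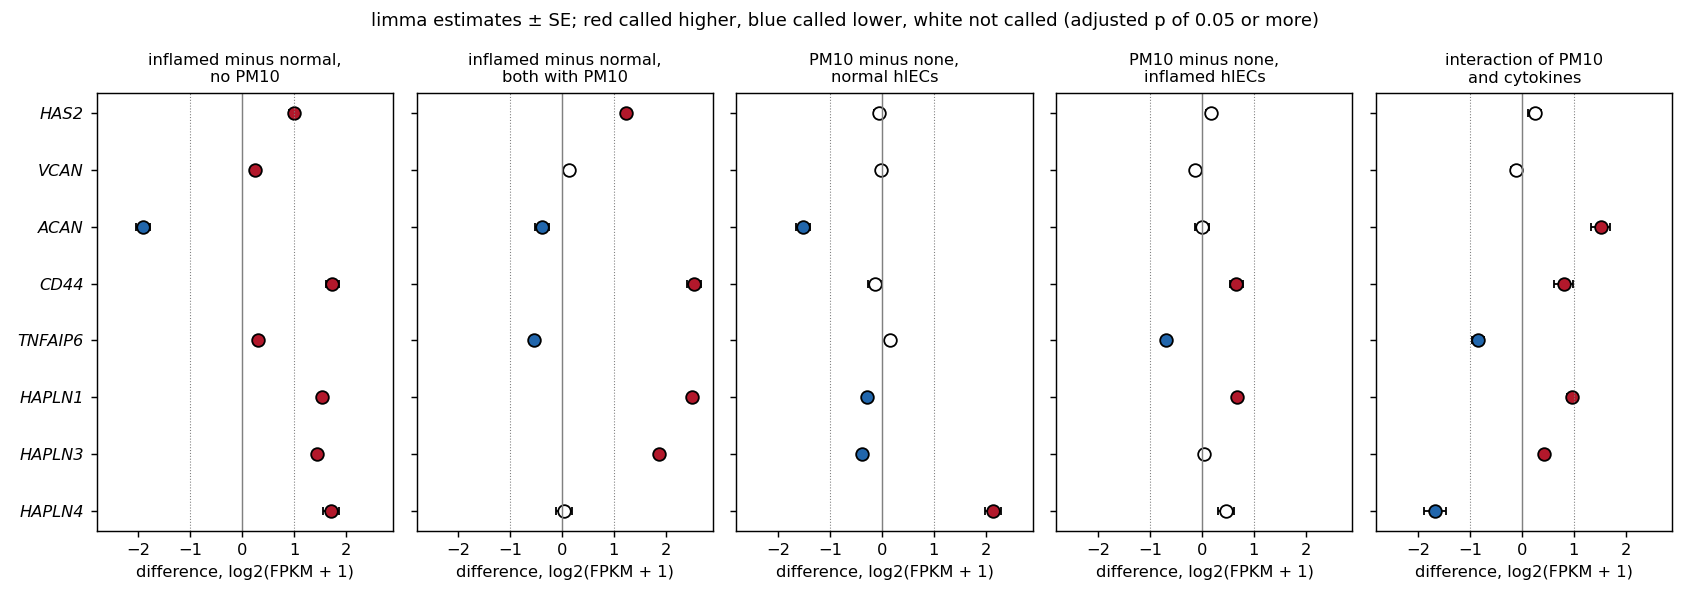
Differences in log2(FPKM + 1) with their SE from limma (horizontal axes) for the 8 tested members in 5 comparisons, with dotted lines at 2-fold. HAS2, CD44, HAPLN1 and HAPLN3 are called higher in both cytokine comparisons, TNFAIP6 is called higher in one and lower in the other, and the HAPLN4 points rest on a gene that shares its exons.

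Pooling the groups by cytokine alone gave a test free of the model. Of the 10 members, HAS2 (1.12 higher on the log2 scale), CD44 (2.14), HAPLN1 (2.01) and HAPLN3 (1.66) were higher in all 4 libraries with cytokines and ACAN fell by 1.15, each at p = 0.0286 in a two-sided exact permutation test of 4 libraries against 4. This is the smallest p possible, and it was not adjusted. VCAN was 0.19 higher (exact permutation p = 0.0571), and HAPLN4 0.87 higher (exact permutation p = 0.343). TNFAIP6 gave a difference of -0.11 (exact permutation p = 0.6), its 2 cytokine groups lying on either side of the others.

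Levels of 2 genes were also compared within a library, where the added 1 FPKM leaves some dependence on the scale of the library. The log2 ratio of VCAN over CD44 (FPKM + 1) ranged from 2.28 to 2.51 in the 4 libraries without cytokines and from -0.24 to 0.90 in the 4 with them. The log2 ratio of TNFAIP6 over CD44 ranged from 0.01 to 0.39 without and from -2.94 to -1.25 with cytokines. Both ratios were lower with cytokines at exact permutation p = 0.0286. In inflamed hIECs with PM10 the level of CD44 thus came close to that of VCAN, from a 4-library range without cytokines in which VCAN was several times higher.

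In the human genome each lectican gene sits beside a link protein gene, and the files allowed the 4 pairs to be read together. VCAN (chr5:83471618-83582303) and HAPLN1 (chr5:83637805-83720855) are 55501 bases apart, ACAN (chr15:88803436-88875353) and HAPLN3 (chr15:88877294-88895597) are 1940 bases apart, NCAN and HAPLN4 (chr19:19254756-19262804) are 2522 bases apart, and BCAN and HAPLN2 are 15664 bases apart, with no protein-coding gene between the members of a pair in GENCODE release 44 on GRCh38. The partners are given side by side. HAPLN1 rose 3.06-fold under cytokines in mean FPKM beside a VCAN mean that was 1.19 times higher, and HAPLN3 rose 2.98-fold beside an ACAN that was listed at 0. NCAN was at 0 in every library while HAPLN4 reached 4.49 FPKM. BCAN fell by 0.55 under cytokines (limma adjusted p = 0.0096), but it reached 1 FPKM only without them, so a difference was built into the filter. HAPLN2, at 0.663 and 0.301 FPKM in normal hIECs and too low to be tested, was at 0 in all 4 libraries with cytokines.

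The summed FPKM of HAPLN1, HAPLN2, HAPLN3 and HAPLN4 over that of VCAN, ACAN, BCAN and NCAN was 0.670 and 0.663 in normal hIECs, 0.748 and 0.724 in normal hIECs with PM10, 2.00 and 1.97 in inflamed hIECs, and 3.33 and 2.94 in inflamed hIECs with PM10. This sum was formed after the values were seen and was not tested. It includes HAPLN4, whose reads cannot be told apart from those of a gene sharing its exons, as described below. The higher ratio with PM10 in normal hIECs is therefore uncertain. There the means of HAPLN1 (10.9 FPKM without and 8.73 FPKM with PM10) and HAPLN3 (6.65 and 4.86 FPKM) were lower with PM10. VCAN held 82.9% to 99.0% of the lectican sum and HAPLN1 held 48.2% to 68.9% of the link protein sum.

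**Figure D3:**
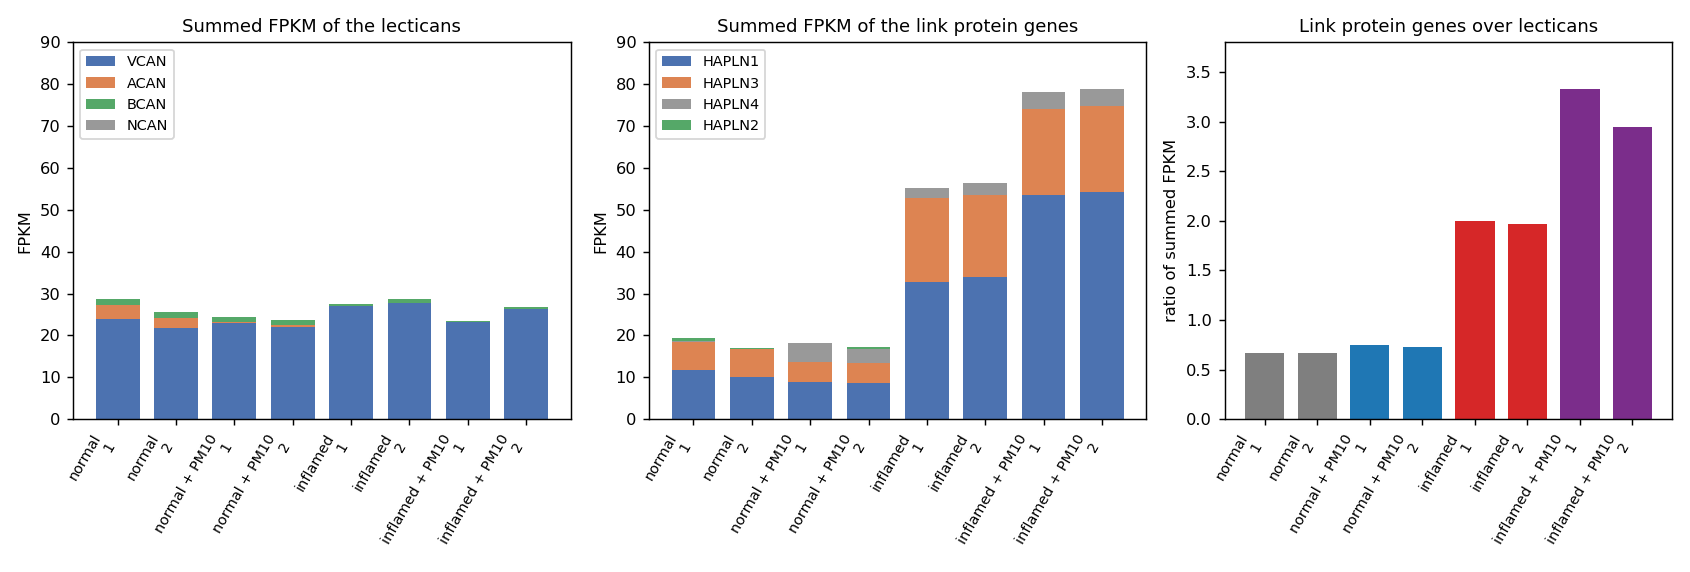
Stacked FPKM of the lectican genes (left) and the link protein genes (middle) in each library, and the ratio of the 2 sums (right), all from 0. The lectican sum stays between 23.5 and 28.8 FPKM, whereas the link protein sum goes from 17 to 19.3 FPKM without cytokines to between 55.2 and 78.8 FPKM with them. The HAPLN4 part of the link protein sum rests on a gene that shares its exons.

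HAPLN4, known mainly from brain, needs a separate account. It was at 0.230 and 0 FPKM in normal hIECs, 4.49 and 3.36 FPKM in normal hIECs with PM10, 2.28 and 2.99 FPKM in inflamed hIECs, and 4.05 and 4.0 FPKM in inflamed hIECs with PM10. By these values it was 2.14 higher with PM10 in normal hIECs (SE 0.15; limma adjusted p = 0.000953) and 1.71 higher with cytokines (SE 0.15; limma adjusted p = 7.81e-05). The annotated lncRNA gene AC138430.1 runs over it on the same strand and holds 4342 of its exon bases (97.3%). That gene moved the opposite way, from 2.16 and 2.37 FPKM in normal hIECs to 0 and 1.13 FPKM with PM10, 0.268 and 0 FPKM with cytokines, and 0 in both libraries with both.

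The 2 genes summed to 2.39 and 2.37 FPKM in normal hIECs, 4.49 and 4.49 FPKM in normal hIECs with PM10, 2.55 and 2.99 FPKM in inflamed hIECs, and 4.05 and 4.0 FPKM in inflamed hIECs with PM10. The sum, a setting added after the values were seen, differed by 0.15 under cytokines (SE 0.077; limma adjusted p = 0.129), was 0.70 higher with PM10 in normal hIECs (limma adjusted p = 0.00412) and 0.42 higher with PM10 in inflamed hIECs (limma adjusted p = 0.0142). Which of the 2 genes the shared reads came from cannot be told apart, so the cytokine call of HAPLN4 is uncertain. In both states the summed level was higher in the PM10 libraries than in those without.

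**Figure D4:**
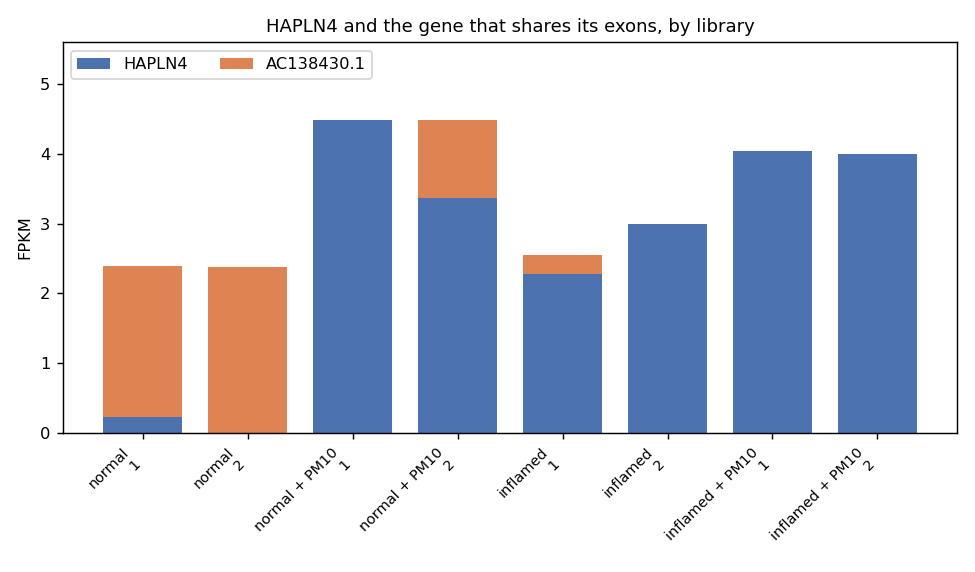
FPKM of HAPLN4 and of AC138430.1 stacked for each library, from 0. HAPLN4 is near 0 only in the 2 normal libraries, where AC138430.1 holds 2.16 and 2.37 FPKM, and the stacked height is 4.0 to 4.49 FPKM in the 4 libraries with PM10 and 2.37 to 2.99 FPKM in the 4 without.

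Next, PM10 exposure was compared within each state. In normal hIECs, 1 member was called higher and 3 lower, against 9.23% of all genes called, and 0 higher and 2 lower of 5 without ACAN, HAPLN4 and HAS2, which did not reach 1 FPKM in both groups. ACAN fell by 1.52 (SE 0.13; limma adjusted p = 0.00196) and HAPLN3 fell by 0.38 (SE 0.053; limma adjusted p = 0.00868), from a mean of 6.65 ± 0.0877 FPKM to 4.86 ± 0.141 FPKM (SD, n = 2 each). The HAPLN3 call was lost without replicate 1 (limma adjusted p = 0.0536) or 2 (0.0665) of the normal hIECs with PM10. HAPLN1 fell by 0.29 (SE 0.068; limma adjusted p = 0.043), and this call was kept in 7 of 18 alternative settings and lost without either library of normal hIECs with PM10 (limma adjusted p = 0.159 and 0.161). HAPLN4 was the member called higher, with the reservation given above. When the fit was restricted to the 4 libraries compared, 0 members were called, with limma adjusted p-values of 0.0763 for ACAN and 0.13 for HAPLN3, and 23 of all genes were called.

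In inflamed hIECs with PM10 against inflamed hIECs, 2 members were called higher and 1 lower, against 15.2% of all genes. HAPLN1 rose by 0.68 (SE 0.068; limma adjusted p = 0.00144), 1.62 times in mean FPKM. TNFAIP6 fell by 0.69 (SE 0.079; limma adjusted p = 0.00224), with a mean 1.83 times higher in the inflamed hIECs without PM10. Both calls were kept in all 18 alternatives. CD44 rose by 0.66 (SE 0.13; limma adjusted p = 0.0156), but its call was lost without inflamed replicate 1 (0.0938), without inflamed replicate 2 (0.0613) and with only the 4 libraries compared (0.0793). HAPLN3 differed by 0.05 (limma adjusted p = 0.562), VCAN by -0.14 (limma adjusted p = 0.224), and ACAN was at 0 on both sides.

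Across these groups 6 of 10 mesenchymal markers were called lower and 1, LUM (0.51, limma adjusted p = 0.000897), higher with PM10 in inflamed hIECs, and the summed FPKM of that list was 1942 to 1968 with PM10 and 2523 to 2550 without. The epithelial sum, nearly all KRT8 and KRT18, was 287 to 305 FPKM with PM10 and 347 to 352 FPKM without in inflamed hIECs. In the 4 libraries without cytokines it was 598 to 652 FPKM. The smooth muscle sum was 1358 to 1829 FPKM without and 2481 to 2534 FPKM with cytokines, carried by ACTA2 and TAGLN, while ACTG2 of that list fell by 1.51 under cytokines (limma adjusted p = 2.0e-05) and CNN1 was not called. The neuronal sum, mostly STMN2, was 134 to 154 FPKM without and 66.4 to 76.7 FPKM with cytokines. The part of such shifts in the results for the members was not tested. Endothelial markers summed to at most 0.486 FPKM, with PECAM1, CDH5, KDR and VWF at 0, and immune markers to at most 1.83 FPKM, with CD3E, CD14 and CSF1R at 0 and PTPRC, which marks leukocytes, at 0 in all 4 libraries with cytokines. CD68 of that list, known from macrophages, was at 0.399 and 0.333 FPKM in inflamed hIECs and 1.11 and 1.83 FPKM with PM10 (0.84 higher, limma adjusted p = 0.021; interaction 1.24, limma adjusted p = 0.0319), having reached 1 FPKM only there. Mesothelial markers summed to 1.96 to 5.90 FPKM, with MSLN and LRRN4 at 0, and pluripotency markers to 7.72 to 10.0 FPKM, with POU5F1, NANOG and LIN28A at 0.

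The interaction asks whether PM10 acted differently in inflamed and normal hIECs. It was called for 6 of the 8 members tested, against 6.6% of all genes, and for 4 of the 5 members that reached 1 FPKM in every group. For HAPLN1 it was 0.97 (SE 0.096; limma adjusted p = 0.00253), the gene being called lower with PM10 in normal and higher in inflamed hIECs. For TNFAIP6 it was -0.85 (SE 0.11; limma adjusted p = 0.00823). Both interactions were called in all 17 alternatives. Those of HAPLN3 (0.43, limma adjusted p = 0.0207) and CD44 (0.80, limma adjusted p = 0.0434) were less firm, being called in 10 and 6 of 17 alternatives. For ACAN the value of 1.52 (limma adjusted p = 0.00619) was set by the libraries at 0, since a gene at 0 cannot fall further, and for HAPLN4 the value of -1.67 (limma adjusted p = 0.008) became -0.28 (limma adjusted p = 0.178) when AC138430.1 was added. HAS2 (0.24, limma adjusted p = 0.308) and VCAN (-0.12, limma adjusted p = 0.54) were not called.

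To place the members in their pathway, 7 further lists of 82 genes were read from the same fit, to be set against the 25.9% of all genes called higher and 30.3% called lower under cytokines without PM10. Of 12 genes for the supply of the UDP-sugars that synthases consume, 11 were called higher and 0 lower under cytokines without PM10, where the list's median was 0.35 and that of all genes was -0.03, and 8 were called higher with PM10. The largest were UAP1 (0.70), which makes UDP-N-acetylglucosamine, SLC35D1 (0.66), a UDP-sugar transporter, UGP2 (0.56), which makes UDP-glucose, UGDH (0.40), which converts it to UDP-glucuronic acid, and GNPNAT1 (0.40). None of the 12 passed 2-fold in that comparison. PM10 in inflamed hIECs raised UGP2 by a further 0.56 (limma adjusted p = 0.00302), from 57.2 and 51.5 FPKM to 82.2 and 78.5 FPKM, and SLC35D1 by 0.36 (limma adjusted p = 0.0228).

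Of 10 genes for hyaluronan breakdown and clearance, 4 were tested and 5 were at 0 throughout, among them LYVE1 and HYAL1. CEMIP, which is needed for the depolymerization of hyaluronan in fibroblasts, moved with both agents: it was at 10.3 and 9.12 FPKM in normal hIECs, 21.5 and 21.5 FPKM with PM10, 20.8 and 21.3 FPKM with cytokines, and 36.0 and 34.8 FPKM with both. The 4 libraries with 1 agent lay between 20.8 and 21.5 FPKM, above the normal libraries and below those with both agents. The log2 differences were 1.04 with cytokines (limma adjusted p = 1.05e-05), 1.07 with PM10 in normal hIECs (limma adjusted p = 0.000404) and 0.73 with PM10 in inflamed hIECs (limma adjusted p = 0.000893). CEMIP2 rose by 0.76 under cytokines. It was also called higher with PM10, by 0.30 in normal hIECs (limma adjusted p = 0.0435) and 0.27 in inflamed hIECs (limma adjusted p = 0.0452). The hyaluronidase gene HYAL2 fell by 0.35 under cytokines.

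Among 12 other receptors and binders, 9 were tested, with 5 higher and 3 lower under cytokines without PM10. ICAM1, an adhesion molecule for leukocytes that was placed in this list, rose by 4.66, from 2.17 and 2.04 FPKM to 77.3 and 78.2 FPKM. TLR2 (1.39), which reached 1 FPKM only with cytokines, and HMMR (0.90), a hyaluronan receptor tied to the mitotic spindle, also rose, while the receptor phosphatase PTPRS fell by 0.78. PM10 took ICAM1 up by 0.67 in normal hIECs (limma adjusted p = 0.00227) and by a further 0.47 in inflamed hIECs (limma adjusted p = 0.00379), and no other gene of the list was called in the latter.

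The list of 8 genes read as partners of TNFAIP6 held TSG101 in error, since that gene encodes a subunit of the ESCRT sorting machinery and is not a partner, and of the other 7 genes 3 were tested. PTX3, a pentraxin that cross-links hyaluronan together with TNFAIP6 and the heavy chains, was the most abundant of them. It was at 82.4 and 72.1 FPKM in normal hIECs, 48.8 and 45.4 FPKM with PM10, 172.6 and 166.4 FPKM with cytokines, and 67.8 and 68.3 FPKM with both. It rose by 1.13 under cytokines (limma adjusted p = 1.24e-05), and with PM10 it fell by 0.70 in normal hIECs (limma adjusted p = 0.00304) and fell by 1.30 in inflamed hIECs (limma adjusted p = 0.000154). In inflamed hIECs PTX3 and TNFAIP6 therefore both fell with PM10, while in normal hIECs PTX3 fell and TNFAIP6 was not called. The heavy chain genes ITIH1 and ITIH2 were at 0 throughout, and ITIH5 fell by 0.51 under cytokines, having reached 1 FPKM only without them. ITIH3, which reached 1 FPKM only with cytokines, was not called without PM10 (0.31, limma adjusted p = 0.215). With PM10 on both sides it was 1.13 higher with cytokines (limma adjusted p = 0.00157). ITIH4 lay at 0.383 to 0.889 FPKM without and 0.238 to 1.06 FPKM with cytokines and was not tested.

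Among 7 proteases that cleave versican and aggrecan, 4 were tested. ADAMTS4 rose by 1.73 under cytokines, from 0.494 and 0.584 FPKM to 4.22 and 4.01 FPKM, ADAMTS1 rose by 0.27, and ADAMTS15 fell by 1.67, from 3.14 and 3.69 FPKM to 0.350 and 0.429 FPKM. ADAMTS4 and ADAMTS15 each reached 1 FPKM on one side only, so that a difference was built into the filter. ADAMTS1 was also called higher with PM10, by 0.69 in normal hIECs (limma adjusted p = 0.00304) and 0.35 in inflamed hIECs (limma adjusted p = 0.0172). Of 21 genes that build the chondroitin sulfate chains of the lecticans, 20 were tested, 5 were higher and 4 lower under cytokines, and the median was 0.08. The share called was 45% beside 56.2% of all genes, and nothing is read from that difference in so short a list. CHST15 (1.03), XYLT1 (1.00), which starts the chain, and DSE (0.68) led those that rose, and XYLT1 was the single gene of the list called with PM10 in inflamed hIECs (0.56, limma adjusted p = 0.0048).

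Of 12 genes that act with CD44 or splice it, 9 were tested, with 7 higher and 1 lower under cytokines. MMP9, a protease that docks on CD44, rose by 4.88, from 5.95 and 5.39 FPKM to 194.7 and 195.8 FPKM. The linkers of CD44 to actin, RDX (1.01) and EZR (0.79), rose, and SPP1, which encodes the CD44 ligand osteopontin, fell by 0.61. With PM10 on both sides the mean of SPP1 was instead 1.31 times higher with cytokines. RDX (0.55, limma adjusted p = 0.0079) and MMP9 (0.38, limma adjusted p = 0.0046) were called higher again with PM10 in inflamed hIECs, and MMP9 also in normal hIECs (0.76, limma adjusted p = 0.0008). The splicing factors ESRP1 and ESRP2, which favour the variant forms of CD44 in epithelia, were at 0 in all libraries, and the gene-level values do not tell the forms apart.

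**Figure D5:**
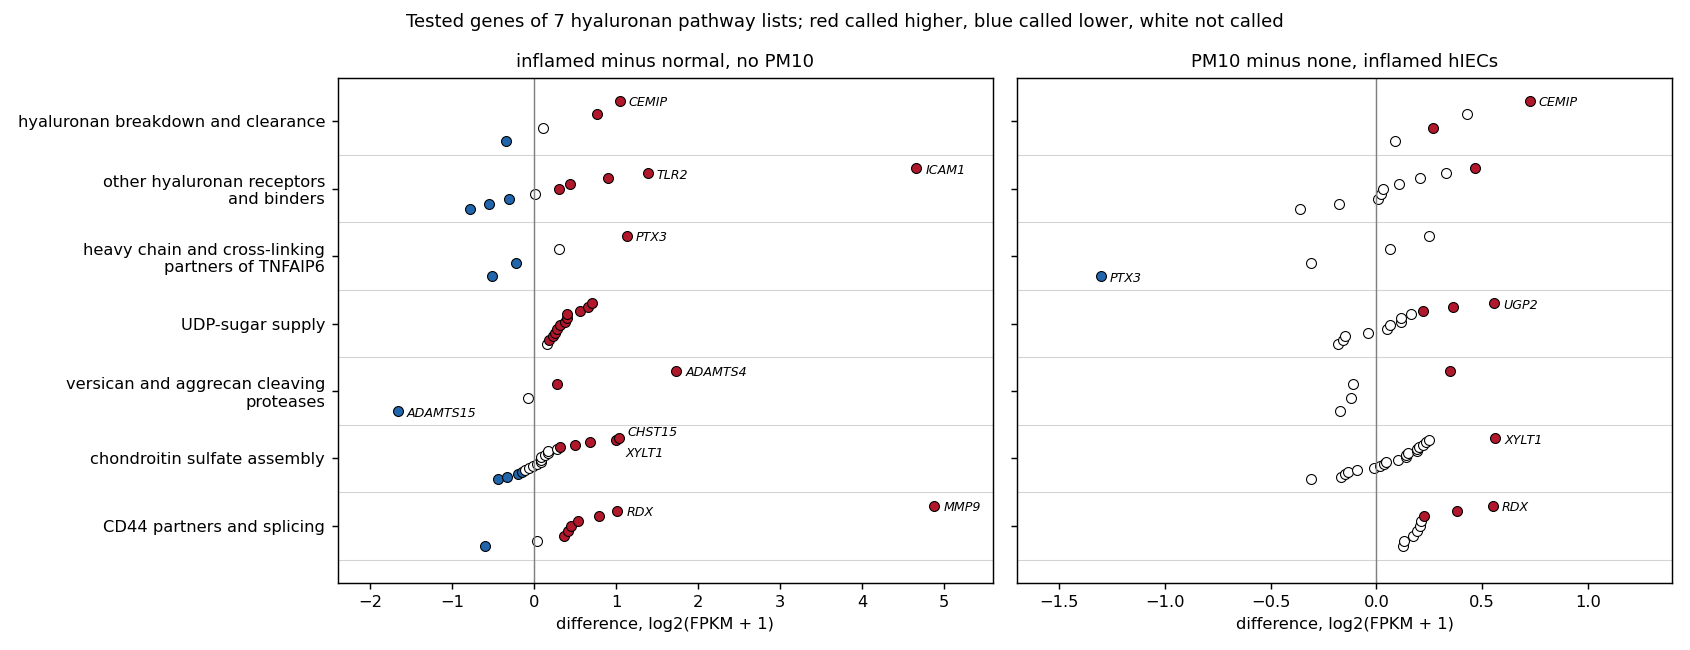
Differences in log2(FPKM + 1) from limma (horizontal axes) of the tested genes of 7 hyaluronan pathway lists, under cytokines without PM10 (left) and with PM10 in inflamed hIECs (right). On the left 11 of 12 UDP-sugar genes are called higher, and on the right most points are white, with PTX3 (-1.30) farthest to the lower side (the list of TNFAIP6 partners includes TSG101, held there in error).

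Finally, for the 5 members that passed 2-fold under cytokines, the tested genes with the most similar profile were sought by the Euclidean distance of centred log2(FPKM + 1) over the 8 libraries. For CD44 the nearest of 14206 genes was another member, HAPLN1 (0.42), followed by DCBLD2 (0.43) and HBEGF (0.45). For HAPLN1 they were HBEGF (0.21), B3GALT2 (0.23) and DCBLD2 (0.30), and for HAPLN3 they were CEP55 (0.18), RIPK2 (0.22) and COL4A2 (0.28). For ACAN they were BMP6 (0.42), RNA5-8SN1 (0.66) and AIF1 (0.69). HAPLN4 had no close match, its nearest genes being CEMIP (1.14), ADAM12 (1.28) and SQSTM1 (1.30). The libraries fall into 4 groups, so nearness describes a like order of group levels and carries no test.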

How the data were processed

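RNA-seq was analysed for 8 libraries of H9-derived 2D hIECs, 2 per group. The authors selected poly-A RNA without keeping the strand, trimmed reads with Cutadapt, mapped them to GRCh38 with HISAT2 and computed gene levels with StringTie. The values the authors deposited are FPKM, 1 per gene and library, and the annotation release is not given in the sources used here. Of the gene identifiers, 99.5% matched GENCODE release 44, which gave positions and overlaps. All columns of values were used.

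FPKM holds no counts, so no count test was run, depth is unknown and no counting interval is given. limma 3.58.1 (R 4.3.3, variance trend) was fitted to log2(FPKM + 1) in all 8 libraries, with Benjamini-Hochberg adjustment over 14206 genes within each of 5 comparisons. The fit was tested on simulated data. Exact permutation tests used scipy 1.17.1 in Python 3.11.15. Promoters came from RefSeq (GRCh38.p14). 1 searched motif and 1 marker gene are not reported here.

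The members and lists were chosen with earlier results of these data known. Named genes were all 10 members, up to 5 genes per list with the largest differences among those called under cytokines without PM10, up to 2 called with PM10 in inflamed hIECs, and the 3 nearest profiles of each 2-fold member. Others, such as the markers at 0, PTX3's partners, AC138430.1 and the paired lectican genes, were named after their values were seen. Replicate numbers were checked for pairing, no shared deviation was seen, and the main fit used no pairing.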

Additional observations from a re-analysis of the deposited data

Results flagged for a closer look

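The response to PM10 was called different between inflamed and normal hIECs for 6 of the 8 members tested, against 6.6% of all genes. These calls come from the interaction term of limma (Benjamini-Hochberg adjusted over 14206 genes). For ACAN and HAPLN4 a difference between groups was built into the filter, so their calls are not counted as support. HAPLN1 (0.97, adjusted p = 0.00253) was lower in 2 of 2 normal libraries with PM10 than in those without, a call kept in 7 of 18 alternatives. It was higher in 2 of 2 inflamed libraries with PM10 than in those without. TNFAIP6 (-0.85, adjusted p = 0.00823) was lower in 2 of 2 inflamed libraries with PM10 than in those without. In 2 of 2 normal libraries with PM10 it was above both normal libraries without, where the difference was not called. CD44 had an interaction of 0.80 (adjusted p = 0.0434; 0.0134 to 0.138 over the alternatives). HAPLN3 had one of 0.43 (adjusted p = 0.0207; 0.0111 to 0.0882 over the alternatives). For ACAN (1.52, adjusted p = 0.00619) the inflamed libraries were at 0 with and without PM10. For HAPLN4 (-1.67, adjusted p = 0.008) the value was -0.28 with AC138430.1 added.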

How the results depend on the processing

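Of the results for single members and the counts over all genes, 824 stayed the same. For a member this means the same direction and side of the threshold, or a value within the spread when 1 library was left out of the pooled difference. For a count it means within 1.5 times the main count. A further 49 lost a call, 4 gained one, and 22 moved, all of them counts over all genes. The results that answer a comparison were the counts of members and list genes called and the within-library ratios. Of these, 188 stayed within 1.5 times the main count or kept their call and 25 moved. The calls of CD44, HAPLN1 and HAPLN3 under cytokines, with and without PM10, held in all 18 alternatives. Those of HAS2 did so too, but a difference was built into the filter for that gene, so they are not counted as support. Members called with PM10 in normal hIECs numbered 4, but 2 after rescaling to TPM, 0 with only the groups compared, and 2 to 3 when 1 library was left out. Of the 82 genes of the pathway lists, 15 were called with PM10 in normal hIECs, against 8 on TPM, 0 with only the groups compared and 6 to 20 with 1 library left out. For PM10 in inflamed hIECs, 12 were called, against 6 to 20 with 1 library left out. For the interaction, 7 were called, against 0 on TPM and 0 to 9 with 1 library left out. The causes were not tested. Leaving out 1 library also leaves the permutation test at a smallest p of 0.0571, so it says nothing there about stability.

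Over all genes, 1311 were called with PM10 in normal hIECs, against 380 on TPM, 23 with only the groups compared and 192 to 2601 with 1 library left out; 2165 with PM10 in inflamed hIECs, against 1225 on TPM and 672 to 2997; and 937 for the interaction, against 366 on TPM and 260 to 1257. Scaling moved the split of higher against lower calls: with PM10 in normal hIECs from 783 and 528 to 563 and 749 after median centring, with PM10 in inflamed hIECs from 883 and 1282 to 1136 and 1102 after quantile normalization, and for the interaction from 300 and 637 to 453 and 539 after median centring.

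Libraries with the same replicate number did not deviate together (correlations of their deviations from the group means from -0.002 to 0.079 over 14206 genes), so no pairing was used in the main fit. With 2 libraries a group, this cannot show whether libraries of the same number were prepared together. With the replicate block, members called with PM10 in normal hIECs went from 4 to 3 (HAPLN1, limma adjusted p = 0.0571) and for the interaction from 6 to 5 (CD44, limma adjusted p = 0.0621), and all-gene counts were 7957, 9264, 1051, 1966 and 762 in the 5 comparisons.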
